A study of Homo sapiens with 6 samples.

Results

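SR proteins and hnRNPs are the main families of splicing regulators, and their mRNAs were followed in HCT116, an established line of human colorectal cancer cells, after knockdown of Matrin3. The members are a list of gene symbols, drawn up with earlier results of these data known, and the rule itself uses no measured value. They were 37 genes in all, made up of the SRSF genes and the related TRA2A and TRA2B (SR members), the HNRNP genes with SYNCRIP (hnRNP members), and SAFB and SAFB2. Of these, 36 were found by Ensembl identifier among the 56632 genes of the tables, and the level of SRSF8 was not analysed here. A further gene, SRSF12, had 0 to 3 expected counts per library and 0.00 to 0.07 TPM (a level divided by transcript length and scaled to one total for all libraries) and did not pass the filter on low counts. The other 35 members, 12 SR, 21 hnRNP and both SAFB genes, were tested.

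Poly(A) RNA was sequenced from 3 siMatrin3 libraries and 3 siCTRL libraries, described by the study as biological triplicates. siMatrin3 cells received a pool of small interfering RNAs (siRNAs) against MATR3, the gene of the nuclear RNA-binding protein Matrin3, and siCTRL cells a commercial negative control siRNA. Cells of both groups were otherwise unmodified and were transfected on 2 occasions, 72 h apart, with a label of 48 h after the last one. The study's methods state a later harvest and a reseeding in between. The model is therefore 1 cell line with a partial knockdown, and effects of the siRNA reagents other than on Matrin3 were not tested. In bulk RNA, fewer cells of a kind and less RNA per cell cannot be told apart.

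SR proteins bind exons through RNA recognition motifs and recruit the spliceosome through a domain rich in arginine and serine, and they mostly favour exon inclusion. hnRNPs coat nascent transcripts, and many of them keep exons out, so that the balance between both families sets the splicing of many exons. Most of these genes also control their own level, by alternative splicing that sends the transcript to nonsense-mediated decay. A gene total sums all transcripts and does not show such splicing.

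MATR3 itself measured 95.2, 112.0 and 110.7 TPM in siMatrin3 libraries, against 186.4, 180.2 and 176.5 TPM in siCTRL libraries, so that the message was lowered but not lost (log2 fold change -0.93, SE 0.065, edgeR adjusted p = 7.67e-05). All libraries matched their labels by this measure. The libraries held 43119176 to 54185650 expected counts in siMatrin3 and 40808173 to 52922637 in siCTRL. Replicates of a typical gene varied by 5.98% on top of counting error (the common biological coefficient of variation in edgeR). Of 6 epithelial markers, 1 (VIL1) was under 1 TPM in every library, and KRT20 measured only 0.62 to 1 TPM. The summed level of all 6 was 2200 to 2420 TPM in siMatrin3 and 2460 to 2640 TPM in siCTRL. Of these markers, KRT18 fell (log2 fold change -0.15, edgeR adjusted p = 0.033). Under 1 TPM in every library were 4 of 5 fibroblast markers, 3 of 4 immune markers and both endothelial markers measured. The fibroblast markers summed to 15 to 19.1 TPM in siMatrin3 and 13.7 to 16.2 TPM in siCTRL, the immune markers to 12.8 to 18.5 TPM in siMatrin3 and 11.8 to 17 TPM in siCTRL, and the endothelial markers to 0.10 to 0.13 TPM in siMatrin3 and 0.10 to 0.15 TPM in siCTRL. The part of these differences in the results was not tested.

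The first question was how abundant the members were in these cells. In TPM, which is per length and can be compared between genes, the hnRNP members spanned a wider range than the SR members. HNRNPA1, which binds exonic silencers and shuttles between nucleus and cytoplasm, was the most abundant member. It measured 1573, 1728 and 1701 TPM in siMatrin3 libraries, against 1775, 1665 and 1754 TPM in siCTRL libraries. These groups overlapped, and the lowest and the highest value both came from a replicate 1. HNRNPA2B1, its close relative, averaged 748 TPM over the 6 libraries, HNRNPH1, which binds runs of G, 608 TPM, and HNRNPC, which binds runs of U and keeps Alu sequence out of mRNA, 550 TPM. HNRNPLL, a regulator of CD45 splicing in lymphocytes, was the least abundant hnRNP member, at 19.2, 18.6 and 19.3 TPM in siMatrin3 libraries and 21.2, 19.4 and 18.7 TPM in siCTRL libraries, which overlapped. The SR members tested lay closer together, with mean levels of 44.4 TPM for SRSF4 to 206 TPM for SRSF2. The 12 SR members together made up 1551, 1603 and 1629 TPM in siMatrin3, against 1496, 1603 and 1556 TPM in siCTRL, and the 21 hnRNP members 6172, 6551 and 6516 TPM in siMatrin3, against 6515, 6503 and 6485 TPM in siCTRL.

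**Figure D1:**
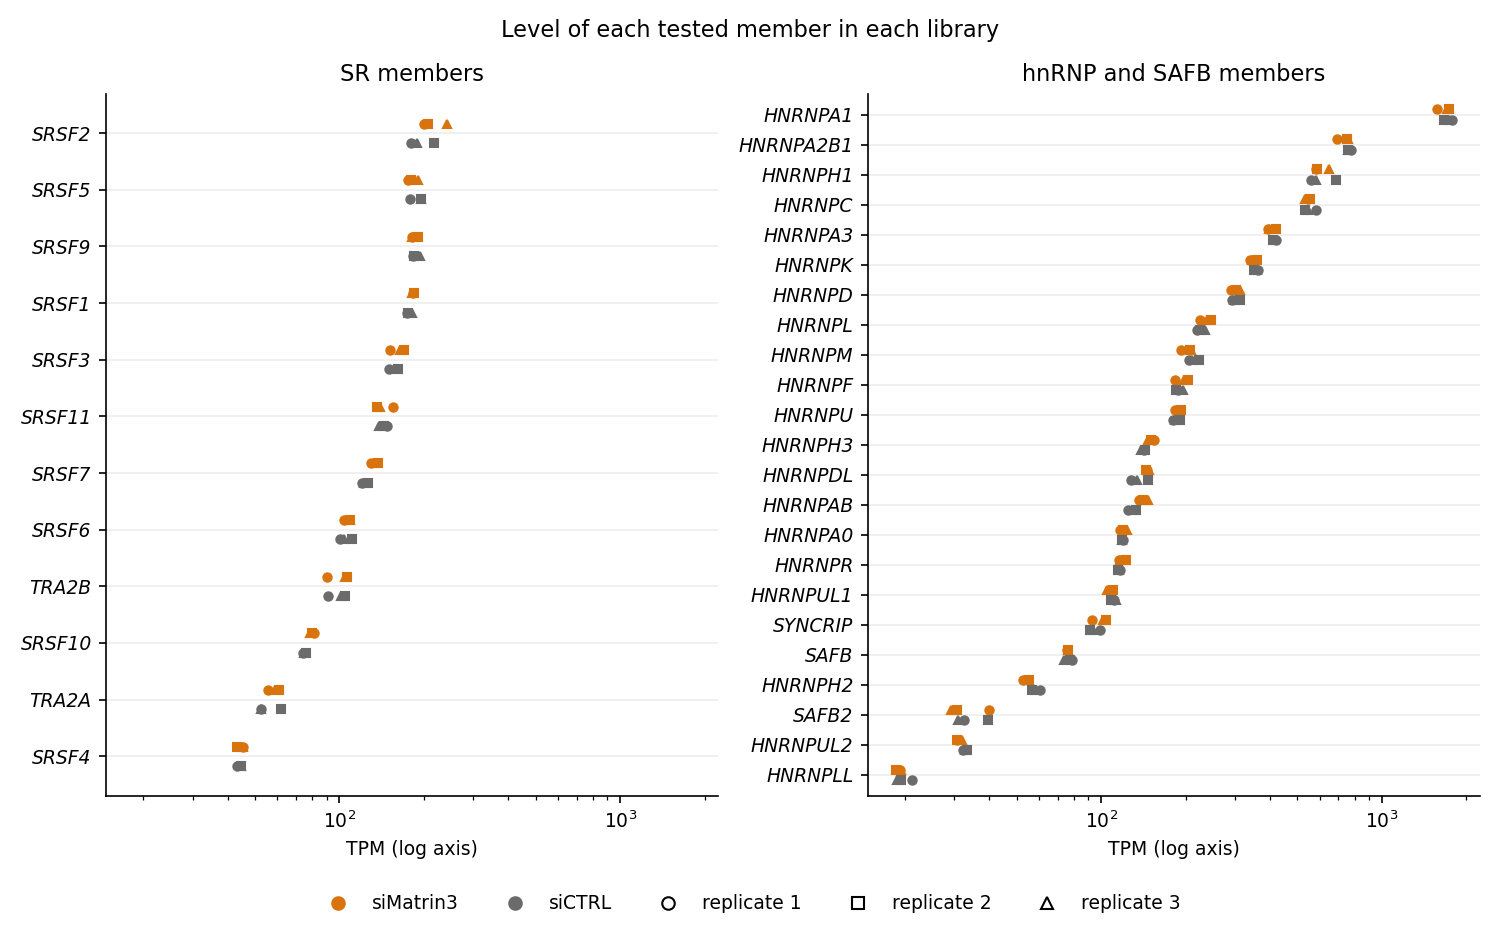
TPM (log axis) of the 35 tested members, where each point is a library, orange above for siMatrin3 and grey below for siCTRL, and the shape gives the replicate number. HNRNPA1 averages 1700 TPM and HNRNPLL 19.4 TPM, and for most members the points of both groups lie together.

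The next question was whether any of these mRNAs changed with the knockdown. With edgeR's quasi-likelihood test, 0 of 35 members passed an adjusted p of 0.05, while 11.0% of all 16786 genes tested did (5.05% higher and 5.97% lower). Among genes with a mean of at least 10 TPM, which all 35 members reached, the share was 12.2%. At an unadjusted p under 0.05 there were 7 members, 4 SR and 3 hnRNP, all higher in siMatrin3 and 0 lower, beside 26.0% of all genes (12.8% higher and 13.1% lower) and 29.7% of genes with at least 10 TPM (19.4% higher). With DESeq2, 4 members were called (SRSF2, SRSF7, SRSF10 and HNRNPAB), beside 11.7% of its 15484 genes.

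The members were measured tightly, and the differences were small. The 95% intervals of 33 of 35 members lay within 1.2-fold either way, and those of 16 within 1.1-fold. Both exceptions to the first count were SR members, SRSF2 and TRA2A, with upper bounds of 1.207-fold and 1.204-fold. The lowest bound of any member was 0.88-fold, for HNRNPH2. The median absolute log2 fold change was 0.048 for the members, 0.107 for all genes tested and 0.0717 for genes with at least 10 TPM. In CPM (counts relative to the scaled library size), 8 members lay higher in every siMatrin3 library than in any siCTRL library, where the share was 15.5% of all genes and 22.8% of genes with at least 10 TPM. Another 3 lay lower without overlap, where these shares were 15.5% and 11.8%.

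**Figure D2:**
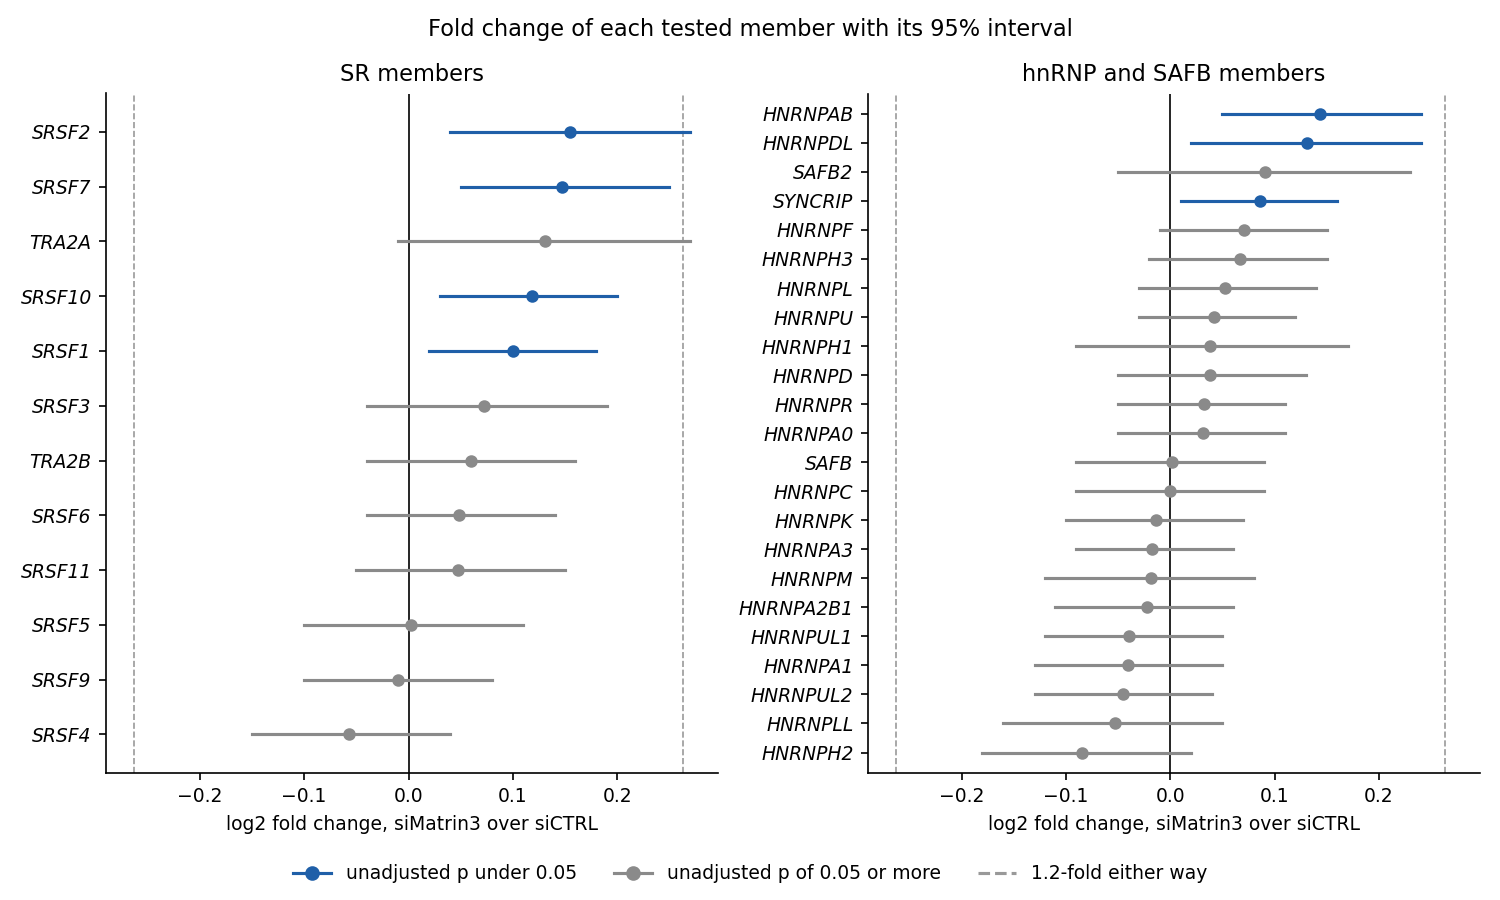
Log2 fold change of siMatrin3 over siCTRL for the 35 tested members, ordered by size within SR members (left) and hnRNP and SAFB members (right), with the 95% interval as a line. Blue marks the 7 members with an unadjusted p under 0.05, all to the right of 0, and the dashed lines at 1.2-fold are crossed only by the intervals of SRSF2 and TRA2A.

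Among the SR members, the smallest p belonged to SRSF7, which acts in splicing and, with SRSF3, as an adaptor for mRNA export. SRSF7 measured 129.6, 137.1 and 133.3 TPM in siMatrin3 libraries, against 120.0, 126.5 and 122.4 TPM in siCTRL libraries. All 3 siMatrin3 libraries were above all 3 siCTRL libraries, by a log2 fold change of 0.15 (SE 0.046, 95% interval 0.05 to 0.25, edgeR adjusted p = 0.0654). Over 16 alternative fits its adjusted p ran from 0.0193 to 0.185. SRSF10, which turns into a splicing repressor when it loses its phosphates in mitosis or heat shock, measured 81.0, 80.0 and 78.9 TPM in siMatrin3 libraries, against 74.1, 76.1 and 74.7 TPM in siCTRL libraries. The libraries of each group lay close together, the groups did not overlap, and the log2 fold change was 0.12 (SE 0.038, edgeR adjusted p = 0.0744).

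SRSF2, an SR protein that stays in nuclear speckles, measured 199.7, 206.7 and 242.3 TPM in siMatrin3 libraries, against 180.1, 217.6 and 188.7 TPM in siCTRL libraries. Here the groups overlapped, because siCTRL replicate 2 was above siMatrin3 replicates 1 and 2 in TPM. In CPM, siCTRL replicate 2 (282.4) was above siMatrin3 replicate 1 (281.9) only. The log2 fold change of 0.15 (SE 0.053) had an edgeR adjusted p of 0.091. SRSF1, the founding member and a known oncogene, measured 182.7, 184.8 and 181.9 TPM in siMatrin3 libraries, against 174.2, 176.1 and 180.7 TPM in siCTRL libraries. These groups did not overlap, though siCTRL replicate 3 came close to the siMatrin3 libraries, and the log2 fold change was 0.10 (SE 0.037, edgeR adjusted p = 0.113). TRA2A, which binds exonic enhancers rich in GA, had the widest interval of the SR members. It is described here after its values were seen, and measured 55.8, 60.7 and 59.0 TPM in siMatrin3 libraries, against 52.4, 62.1 and 52.7 TPM in siCTRL libraries. The highest of the 6 TPM values was siCTRL replicate 2, while in CPM it was siMatrin3 replicate 2, and the log2 fold change was 0.13 (SE 0.062, edgeR adjusted p = 0.214).

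Without siCTRL replicate 2, edgeR called 4 members higher: SRSF7 (0.18), SRSF2 (0.20), TRA2A (0.21) and HNRNPDL (0.18 on the log2 scale). In that fit 9.32% of all 17149 genes tested were called, and 4.01% were called higher. Leaving out any other single library gave 0 calls among the members. The remaining SR members had log2 fold changes between -0.06 and 0.07. They were SRSF3 (0.07), TRA2B (0.06), SRSF6 (0.05), SRSF11 (0.05), SRSF5 (0.00), SRSF9 (-0.01) and SRSF4 (-0.06), with edgeR adjusted p of 0.43 and above.

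Among the hnRNP members, HNRNPAB came nearest to the threshold. It encodes a protein with paired RNA recognition motifs that binds RNA and single-stranded DNA. HNRNPAB measured 135.9, 141.4 and 147.0 TPM in siMatrin3 libraries, against 124.8, 133.0 and 130.7 TPM in siCTRL libraries. All siMatrin3 libraries were higher, and the log2 fold change was 0.14 (SE 0.041, 95% interval 0.05 to 0.24, edgeR adjusted p = 0.0509, with 0.0157 to 0.181 over the alternatives). HNRNPDL, a relative of the decay factor HNRNPD, measured 145.2, 144.9 and 147.5 TPM in siMatrin3 libraries, against 128.0, 146.3 and 134.1 TPM in siCTRL libraries. The siMatrin3 libraries agreed closely and siCTRL replicate 2 lay among them in TPM. In CPM its groups were apart by a narrow gap, 176.0 CPM for the lowest siMatrin3 library and 175.7 CPM for the highest siCTRL library, and the log2 fold change was 0.13 (SE 0.048, edgeR adjusted p = 0.114). SYNCRIP, also known as hnRNP Q, which acts in mRNA transport and translation, had 313.2, 322.7 and 315.6 CPM in siMatrin3, against 297.3, 301.8 and 297.0 CPM in siCTRL. Its groups did not overlap in CPM but did in TPM, and the log2 fold change was 0.09 (SE 0.035, edgeR adjusted p = 0.142).

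**Figure D3:**
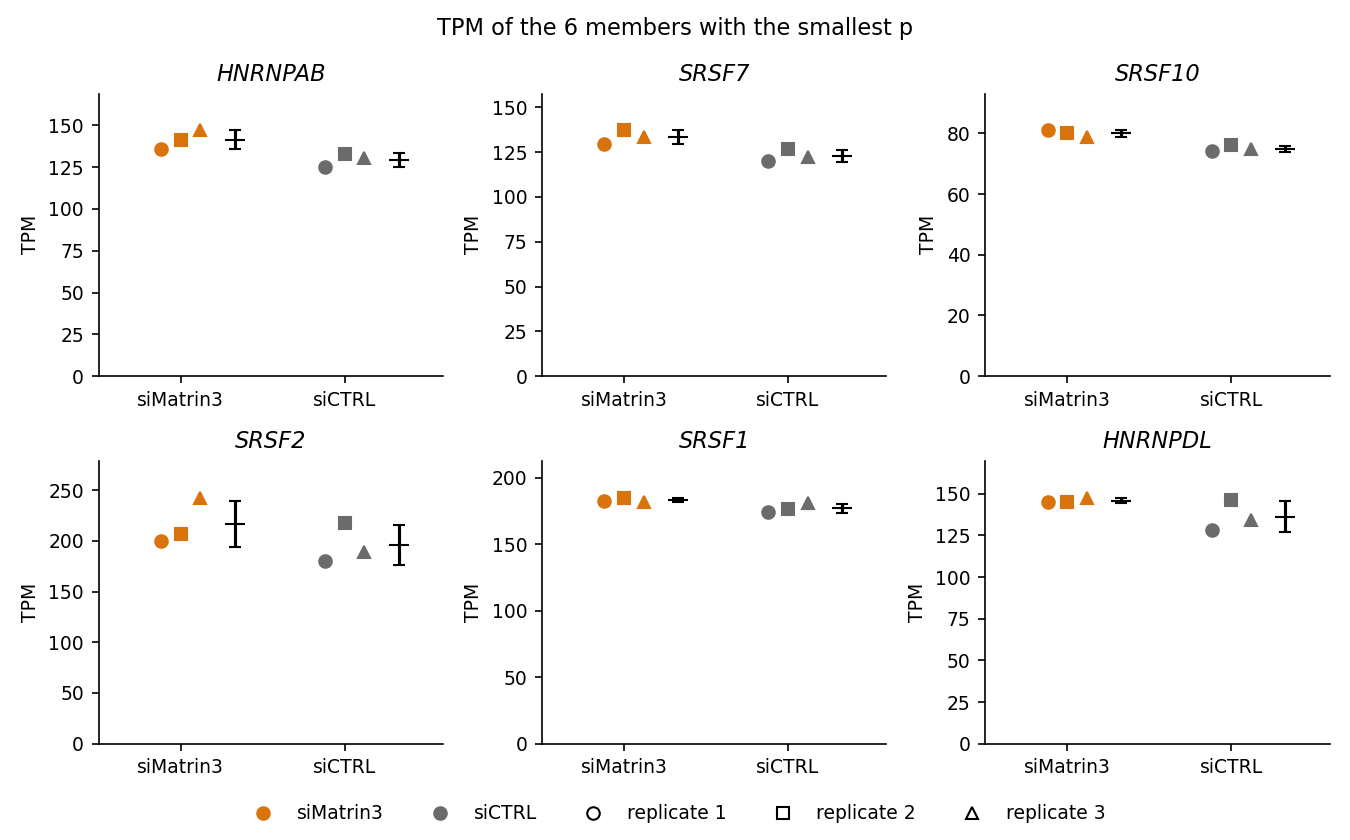
TPM of the 6 members with the smallest p, in siMatrin3 (orange, left) and siCTRL (grey, right), where each point is a library, the shape gives the replicate number, and the black dash and bar are the mean and SD of 3 libraries. The groups do not overlap for HNRNPAB, SRSF7, SRSF10 and SRSF1, and siCTRL replicate 2 reaches into the siMatrin3 range for SRSF2 and HNRNPDL.

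The members that bind runs of G (HNRNPF, HNRNPH1, HNRNPH2 and HNRNPH3) had fold changes of either sign, and none passed the test. HNRNPH2, on the X chromosome, had the lowest fold change of all members. It measured 52.6, 55.6 and 55.3 TPM in siMatrin3 libraries, against 60.6, 56.8 and 58.5 TPM in siCTRL libraries, which did not overlap (log2 fold change -0.08, SE 0.045, edgeR adjusted p = 0.275). HNRNPF had a log2 fold change of 0.07 (adjusted p = 0.265) and HNRNPH3 of 0.07 (adjusted p = 0.308), both with CPM that did not overlap. HNRNPH1 varied within the groups, with 582.3, 589.2 and 645.5 TPM in siMatrin3 libraries, against 559.4, 685.3 and 584.2 TPM in siCTRL libraries. In TPM, its 2 high libraries, siCTRL replicate 2 and siMatrin3 replicate 3, were also the high ones for SRSF2. In CPM, SRSF2 was higher in siMatrin3 replicate 2 (291.7) than in siCTRL replicate 2 (282.4). HNRNPH1 was singled out after its values were seen. HNRNPUL2, a relative of the nuclear scaffold protein HNRNPU, lay lower in every siMatrin3 library, at 125.4, 123.2 and 127.1 CPM, against 129.0, 130.3 and 128.4 CPM in siCTRL (log2 fold change -0.05, adjusted p = 0.503). In the annotation HNRNPH2 and HNRNPUL2 share exons on the same strand with the readthrough genes RPL36A-HNRNPH2 and HNRNPUL2-BSCL2, so that their counts are uncertain to that extent. In all, exons of 11 of 36 members overlap another annotated gene on the same strand, and those of 12 a gene on the opposite strand.

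The other hnRNP members had log2 fold changes from -0.05 for HNRNPLL to 0.05 for HNRNPL, which binds CA repeats, with edgeR adjusted p of 0.417 and above. HNRNPC stood at 0.00 and HNRNPK, which binds runs of C, at -0.01. HNRNPA1 stood at -0.04 (SE 0.04, edgeR adjusted p = 0.58). Counts of HNRNPA1 and HNRNPA3 are divided with those of near-identical pseudogenes. The 73 rows named as pseudogenes of HNRNPA1 took 1.78% to 2.1% of the summed TPM of gene and pseudogenes, and the 15 of HNRNPA3 3.36% to 7.66%. Both SAFB genes encode scaffold attachment factors that bind RNA and matrix DNA. SAFB had a log2 fold change of 0.00 (SE 0.041) and SAFB2 of 0.09 (SE 0.064, edgeR adjusted p = 0.42). SAFB2, named after its values were seen, had the largest spread within groups of the members, and its sign turned on the scale used, with -0.02 once a transcript length offset was added.

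SR members were then set against hnRNP members. Of 12 SR members, 10 had a positive log2 fold change, and of 21 hnRNP members 11 had one. The median was 0.07 for SR members, 0.03 for hnRNP members and 0.0231 for genes with at least 10 TPM. Over all genes tested it was -0.00106. Members are not replicates, so no test was made of this difference. The sum of SR over that of hnRNP members in TPM was 0.251, 0.245 and 0.25 in siMatrin3 libraries, against 0.23, 0.247 and 0.24 in siCTRL libraries, and siCTRL replicate 2 lay within the siMatrin3 range.

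Within each group, most SR members were high or low in the same libraries. In siCTRL, replicate 1 had the lowest CPM of its group for 10 of 12 SR members and replicate 2 the highest for 8. In siMatrin3, replicate 1 was the lowest for 9 of 12 SR members and 14 of 21 hnRNP members. The share of all genes with their lowest or highest value in these libraries was not computed. These counts therefore do not show a trait of the members. The mean of log2 CPM over the SR members, relative to the siCTRL mean, was 0.0346, 0.0779 and 0.0915 in siMatrin3 libraries, against -0.0448, 0.0454 and -0.000544 in siCTRL libraries. The groups overlapped in this mean, since siCTRL replicate 2 was above siMatrin3 replicate 1. For the hnRNP members these values were -0.00575, 0.0327 and 0.031 in siMatrin3 libraries, against 0.00314, 0.00437 and -0.00751 in siCTRL libraries, a narrower span in both groups. The median SD within groups was 0.0534 for SR members and 0.0414 for hnRNP members in log2 CPM, beside 0.0578 for genes with at least 10 TPM. Without replicate 1 of both groups, an alternative chosen after seeing the data, the median was 0.066 for SR members and 0.023 for hnRNP and SAFB members, and 0 of 35 members were called by edgeR.

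**Figure D4:**
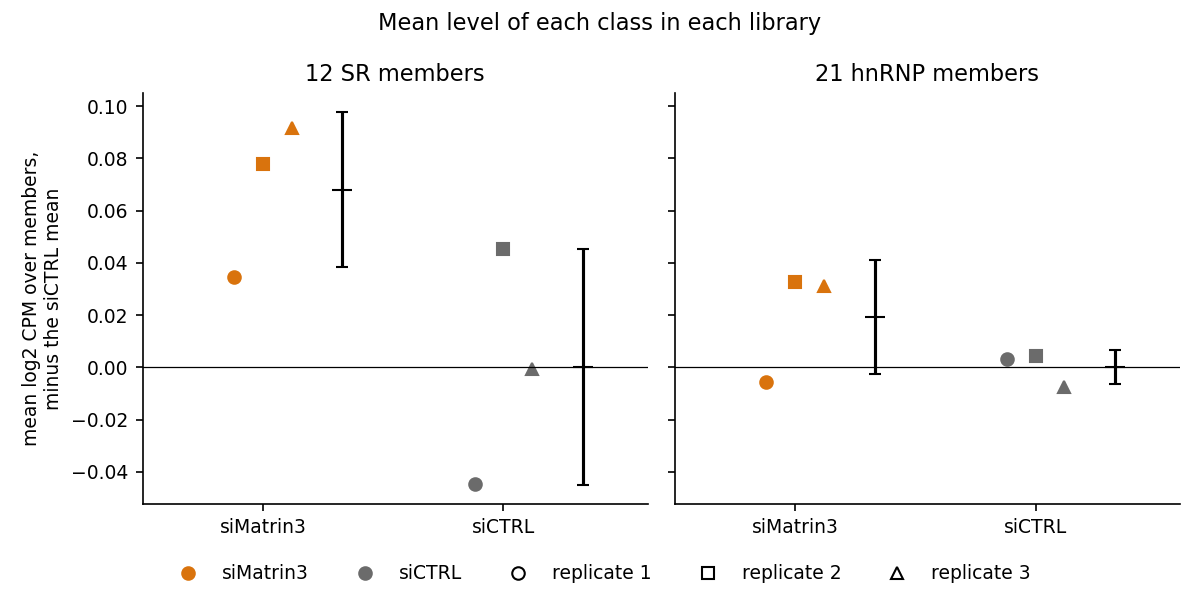
Mean log2 CPM over the 12 SR members (left) and the 21 hnRNP members (right) in each library, minus the mean of the 3 siCTRL libraries, with siMatrin3 in orange to the left of siCTRL in grey and the mean and SD of 3 libraries in black. The SR mean of siCTRL replicate 2, 0.0454, lies above that of siMatrin3 replicate 1, 0.0346, and siCTRL replicate 1 is the lowest at -0.0448.

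A further question was whether the mix of transcripts of a member changed. The tables give for each gene a transcript length weighted by the estimated abundance of its transcripts, which moves only when that mix moves. Of 33 members tested, 0 passed an adjusted p of 0.05 with limma, and 2 had an unadjusted p under 0.05. Over the 12148 genes tested for length, 0.00823% were called and 6.32% had an unadjusted p under 0.05. HNRNPA0 and HNRNPH2 have a single transcript in the tables and could not be tested.

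SRSF4, an SR protein with a long domain of arginine and serine, had the smallest p for length. Its weighted length was 2008, 2043 and 2061 bases in siMatrin3 libraries, against 2190, 2146 and 2152 bases in siCTRL libraries. It was shorter in every siMatrin3 library (log2 difference -0.09, SE 0.014, unadjusted p = 0.00192, limma adjusted p = 0.417). The annotation lists 8 transcripts for this gene, of which 2 are marked for nonsense-mediated decay. Those that match counted transcripts are protein-coding ones of 2300 and 1264 bases, and ones of 206 and 516 bases that retain an intron. Of the 7 transcripts counted for this gene, only 4 have an annotated length. Which of them moved was not tested. SRSF4 also lay lower in every siMatrin3 library in CPM, at 68.9, 66.4 and 70.1 CPM, against 71.1, 71.0 and 71.6 CPM in siCTRL libraries. In TPM, which divides by length, the groups overlapped, at 45.3, 43.3 and 45.3 TPM in siMatrin3 and 43.3, 44.8 and 44.5 TPM in siCTRL, and the log2 fold change was -0.06 from counts and 0.03 with a length offset.

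HNRNPH3 was shorter as well, at 1406, 1412 and 1434 bases in siMatrin3 libraries, against 1460, 1451 and 1458 bases in siCTRL libraries (log2 difference -0.04, SE 0.0098, limma adjusted p = 0.648). Its TPM were 154.0, 150.4 and 146.6 in siMatrin3 libraries, against 142.1, 143.1 and 138.2 in siCTRL libraries, higher without overlap. The remaining members named for length did not pass the test either. HNRNPM, which binds GU-rich RNA, had 1931, 1927 and 1972 bases in siMatrin3, against 1917, 1894 and 1894 bases in siCTRL (log2 difference 0.03). HNRNPR, a relative of SYNCRIP, had 2539, 2483 and 2518 bases in siMatrin3, against 2544, 2542 and 2557 bases in siCTRL (-0.02). Neither of these genes overlapped between groups. The share of all genes without overlap in length was not computed. Lengths of SRSF6 did not overlap either, though they differed by few bases, with 3706, 3706 and 3705 in siMatrin3 against 3709, 3709 and 3711 in siCTRL. TRA2A (0.03) and HNRNPD (0.01) overlapped, with 1634, 1599 and 1639 bases in siMatrin3 against 1567, 1581 and 1613 bases in siCTRL for TRA2A, and 1433, 1413 and 1410 bases in siMatrin3 against 1402, 1414 and 1401 bases in siCTRL for HNRNPD.

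In other members, length differed between replicates of a group. SRSF2 had 1880, 1896 and 1740 bases in siMatrin3 libraries, against 1878, 1789 and 1885 bases in siCTRL libraries. The 2 shortest values fell in siMatrin3 replicate 3 and siCTRL replicate 2, the libraries with the highest TPM of this gene. SAFB2 had 1906, 2082 and 2312 bases in siMatrin3 libraries, against 2096, 1761 and 2005 bases in siCTRL libraries. The 2 libraries with the shortest SAFB2, siCTRL replicate 2 and siMatrin3 replicate 1, had the highest TPM, 39.5 and 39.9, and the others had 29.2 to 32.4 TPM. A level in TPM is computed with this length, so the pair of measures is not independent.

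**Figure D5:**
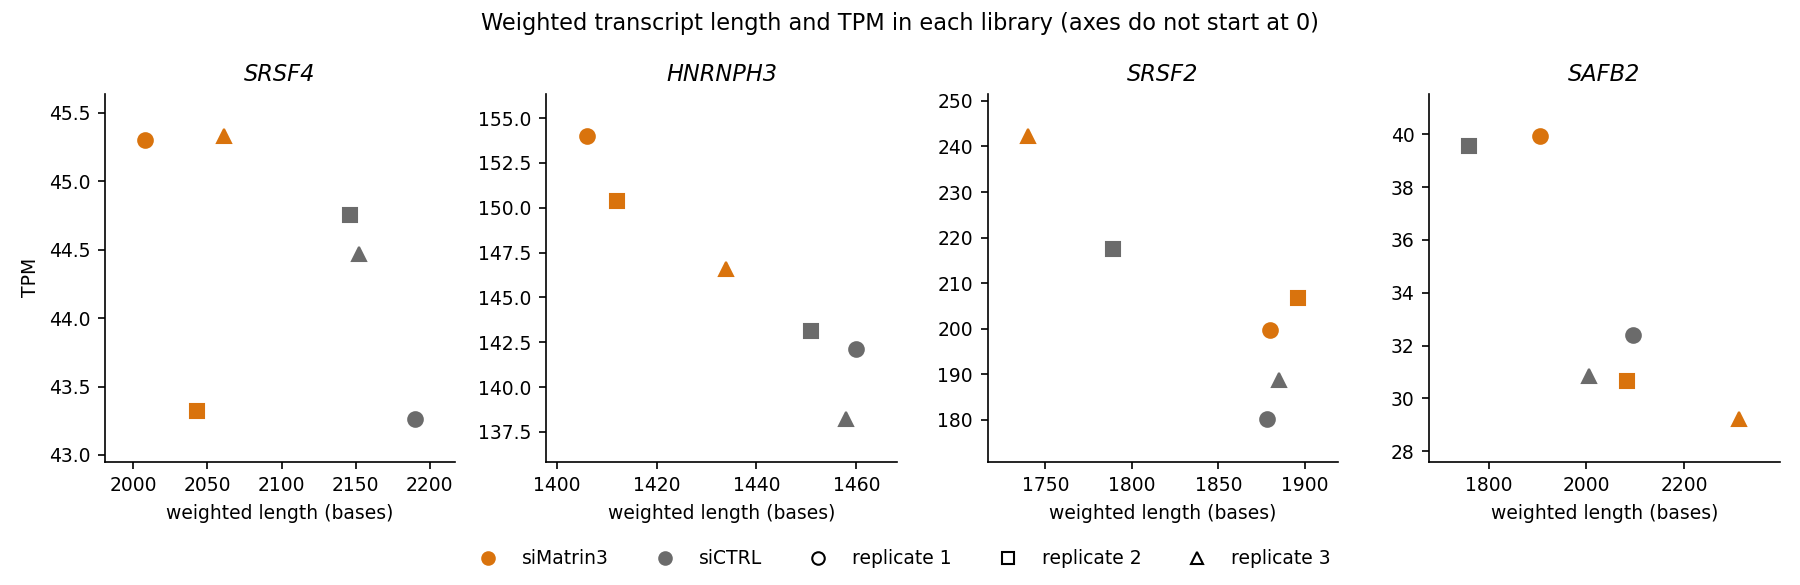
TPM against weighted transcript length in bases for SRSF4, HNRNPH3, SRSF2 and SAFB2, where each point is a library of siMatrin3 (orange) or siCTRL (grey), the shape gives the replicate number, and the axes do not start at 0. SRSF4 and HNRNPH3 are shorter in all 3 siMatrin3 libraries, and for SRSF2 and SAFB2 the libraries with the shortest lengths have the highest TPM in either group.

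The genes that modify and carry these proteins were read from the same fit. SR proteins are phosphorylated by the SRPK and CLK kinases, brought into the nucleus by transportins, and many hnRNPs are methylated on arginine. Of 9 kinases tested, 0 were called by edgeR and 1 by DESeq2, with 1 at an unadjusted p under 0.05, where the shares over all genes were 11.0%, 11.7% and 26.0%. The median log2 fold change of the kinases was 0.06, beside -0.00106 for all genes tested and 0.0231 for genes with at least 10 TPM. Of 5 import and export genes, KPNB1, the importin beta subunit, rose by edgeR. It measured 218.6, 198.8 and 213.6 TPM in siMatrin3 libraries, against 195.0, 182.8 and 190.3 TPM in siCTRL libraries, a log2 fold change of 0.13 (SE 0.038, adjusted p = 0.0496). Of 5 arginine methyltransferases, PRMT3, a cytoplasmic enzyme known for methylating a ribosomal protein, rose by edgeR. PRMT3 had 14.7, 14.6 and 15.3 TPM in siMatrin3 libraries, against 13.5, 13.4 and 12.6 TPM in siCTRL libraries, a log2 fold change of 0.19 (SE 0.047, adjusted p = 0.0306). The groups did not overlap for either gene, but the call was lost in 11 of 16 alternatives for KPNB1 and in 9 of 16 for PRMT3. Each was the only edgeR call of its 5 genes, beside 11.0% of all genes. DESeq2 called 1 import and export gene and 0 methyltransferases, beside 11.7%. At an unadjusted p under 0.05, 2 import and export genes and 3 methyltransferases were higher and 0 lower, beside 12.8% and 13.1% of all genes. Their median log2 fold changes were 0.11 and 0.09.

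The partners of SR proteins with RS domains of their own, such as PNN, SRRM2 and the U2AF subunits, numbered 24, with 0 called by edgeR, 1 by DESeq2, 4 higher and 0 lower at an unadjusted p under 0.05, and a median of 0.04. Over all genes 12.8% were higher and 13.1% lower at that p, and among genes with at least 10 TPM 19.4% were higher, so that 4 of 24 is near these shares.

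The promoters of the members were read from RefSeq (GRCh38.p14, 250 bases before to 50 after the start site), where 34 of 37 members had an entry. SRSF2, TRA2A and HNRNPA1 had none. The 12 SR windows therefore include SRSF8 and SRSF12 and are not those of the 12 SR members tested for abundance. Shown are HNRNPAB and SRSF7, the members with the smallest p of either family, HNRNPDL, which has the sixth smallest p and holds an E-box, and SAFB, whose start site lies 307 bases from that of SAFB2 on the other strand, so that their windows share 194 bases. Sequences run 5′ to 3′ on the gene's strand. Capitals mark matches on either strand to the letters GGGCGG of the GC box, to CCGGAA of the ETS motif, to the CCAAT box by its name, to CACGTG of the E-box, or to TATAAA of the TATA box, and no match overlapped another in the windows shown.
HNRNPAB, chr5:178204283-178204582, plus strand: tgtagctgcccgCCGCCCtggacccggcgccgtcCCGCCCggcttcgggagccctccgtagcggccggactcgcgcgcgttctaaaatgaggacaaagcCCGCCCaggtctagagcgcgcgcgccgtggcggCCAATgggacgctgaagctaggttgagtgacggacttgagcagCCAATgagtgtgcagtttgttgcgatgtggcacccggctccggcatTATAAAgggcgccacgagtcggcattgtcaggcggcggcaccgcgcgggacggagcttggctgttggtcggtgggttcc
SRSF7, chr2:38751445-38751744, minus strand: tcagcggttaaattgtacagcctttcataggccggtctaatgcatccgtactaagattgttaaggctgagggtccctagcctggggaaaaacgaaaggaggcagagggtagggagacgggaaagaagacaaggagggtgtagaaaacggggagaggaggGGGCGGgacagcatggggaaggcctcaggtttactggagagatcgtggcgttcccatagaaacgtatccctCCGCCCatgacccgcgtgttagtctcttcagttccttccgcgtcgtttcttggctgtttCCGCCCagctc
HNRNPDL, chr4:82430176-82430475, minus strand: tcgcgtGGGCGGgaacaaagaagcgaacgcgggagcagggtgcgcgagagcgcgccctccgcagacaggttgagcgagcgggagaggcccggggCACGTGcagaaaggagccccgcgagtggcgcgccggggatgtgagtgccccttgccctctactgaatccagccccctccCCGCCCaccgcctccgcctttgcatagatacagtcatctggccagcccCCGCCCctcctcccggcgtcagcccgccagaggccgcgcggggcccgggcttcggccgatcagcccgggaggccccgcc
SAFB, chr19:5622833-5623132, plus strand: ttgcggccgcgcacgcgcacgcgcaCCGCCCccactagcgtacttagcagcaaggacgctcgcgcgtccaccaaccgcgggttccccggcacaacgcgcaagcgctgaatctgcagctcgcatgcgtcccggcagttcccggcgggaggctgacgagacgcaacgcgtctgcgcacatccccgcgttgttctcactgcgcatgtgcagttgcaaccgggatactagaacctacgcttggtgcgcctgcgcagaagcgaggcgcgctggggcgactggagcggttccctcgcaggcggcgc

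The HNRNPAB window holds 3 GC boxes, 2 CCAAT boxes and 1 TATA box. SRSF7 holds 3 GC boxes and none of the other motifs. HNRNPDL holds 3 GC boxes and 1 E-box, and SAFB 1 GC box. Over the 34 members, 70.6% of windows held a GC box, against 44.6% of 27305 windows in the table. By family, it was present in 18 of 22 hnRNP and SAFB windows and in 6 of 12 SR windows. The median GC content of the 34 windows was 66.3%, against 58.3% for all windows. A CCAAT box was present in 13 of 22 hnRNP and SAFB windows and in 2 of 12 SR windows (SRSF3 and SRSF8), against 35.7% of all windows. An E-box was present in 8 of 22 hnRNP and SAFB windows and in 0 of 12 SR windows, against 7.43% of all windows. The members with it were HNRNPA3, HNRNPD, HNRNPDL, HNRNPH2, HNRNPH3, HNRNPM, HNRNPUL1 and SYNCRIP, of which the fold changes above ran from -0.08 for HNRNPH2 to 0.13 for HNRNPDL. ETS motifs (17.6% of members, 17.6% of all) and TATA boxes (5 of 34 members, 3264 of 27305 in all) had close shares in members and in the table. GC content differs between these sets and was not corrected for, and a match of letters is not a binding site.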

How the data were processed

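Poly(A) RNA was made into stranded, paired-end libraries. According to the submitters' notes the reads were trimmed with cutadapt, aligned to hg19 with STAR 2.5.1 (the methods give another version) and estimated with RSEM. Each library has a deposited table. Its expected counts are the authors' estimates, in which a read that fits several transcripts or genes is divided among them. Its TPM values were scaled by the authors to one total for all libraries. The deposited FPKM values were not used. The deposited length columns, a signal per gene and library, were averaged by the authors over transcripts weighted by abundance.

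Groups came from the labels. Symbols, overlaps and transcripts came from GENCODE 44, which is on GRCh38, and promoters from RefSeq GRCh38.p14. A symbol was found for 88.3% of genes, and those without took 0.941% of counts. The members and lists were chosen with earlier results of these data known. Rounded expected counts went into edgeR 4.0.16 in R 4.3.3 (filterByExpr, TMM scaling, a two-sided quasi-likelihood test without covariates), with Benjamini-Hochberg adjustment over 16786 genes. CPM used TMM library sizes, and log2 CPM a prior count of 2. Log2 length was tested with limma 3.58.1 in genes with at least 2 transcripts and 50 expected counts in every library. The study used DESeq2, and DESeq2 1.42.0 was an alternative here. Its adjusted p was left out where it gave none. Named members were up to 6 with the smallest p in each test, the most abundant and the least abundant ones, and, from the other lists, called genes. The list of other proteins counted with the hnRNPs is not reported here. Alternatives were other scalings, filters, a replicate block, leaving out each library, a length offset, limma on log2(TPM + 1) and log2(TPM + 0.1), stricter thresholds and other count minimums. The steps were tested on simulated data. P-values set the difference between groups against the spread between libraries of a group, which the fits estimate partly from other genes.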

Additional observations from a re-analysis of the deposited data

How the results depend on the processing

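The count of 0 members called for abundance became 3 with no filter on low counts, 4 with DESeq2 and 0 to 4 when a library was left out, and stayed 0 under RLE and upper quartile scaling, a filter of 1 CPM in 3 libraries, the length offset and limma on TPM. Over these fits 6 members were called at least once and 29 in none. Genes called over all genes, 1849 by edgeR, numbered 2595 with no filter on low counts and 1814 with DESeq2. They numbered 759 to 1599 when a library was left out, 1216 without replicate 1 of both groups and 706 with the length offset. Limma called 437 on log2(TPM + 1) and 429 on log2(TPM + 0.1), and 561 passed an edgeR adjusted p under 0.01. The 2 calls among regulators became 4 with no filter, 3 with DESeq2, 0 to 2 when a library was left out and 1 without replicate 1 of both groups. They became 0 under upper quartile scaling, the length offset, both limma fits and an adjusted p under 0.01. The 2 calls without siCTRL replicate 2 were other genes than KPNB1 (edgeR adjusted p = 0.0795) and PRMT3 (edgeR adjusted p = 0.0535). The median log2 fold change of SR members stayed between 0.033 and 0.098. That of hnRNP and SAFB members, 0.031, was 0.013 under upper quartile scaling, 0.005 with the length offset, -0.012 in both limma fits and 0.014 to 0.028 when a library was left out. SAFB2, 0.091, turned to -0.019 with the length offset and to -0.046 and -0.048 in the limma fits, HNRNPH1, 0.038, to -0.005 in both limma fits and ran from -0.013 without siCTRL replicate 1 to 0.106 without siCTRL replicate 2, and HNRNPA1, -0.04, to 0.007 without replicate 1 of both groups. For weighted length, 0 members were called under every alternative, and the 1 gene called over all genes became 2 with at least 10 counts, 0 to 5 when a library was left out, and 0 without replicate 1 of both groups or at an adjusted p under 0.01. The labels do not say whether same-numbered libraries were handled together. Same-numbered libraries deviated together with r of 0.177, 0.0896 and 7.21e-05. Of the siMatrin3 libraries, replicates 1 and 2 correlated best with their own number, and replicate 3 did not. With a replicate block, 3 members (SRSF7, SRSF2 and HNRNPAB), 4 regulators and 2716 genes were called for abundance, and 0 members and 0 genes for length. The causes of these shifts were not tested. SRSF12, at 0 to 3 counts per library, could not be tested at this depth.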
